A study of Mus musculus with 9 samples.

Results

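The comparison described here is that of CTCF signal in MommeD43-GFP and control neural stem cells (NSCs) over the autosomes. Every merged CTCF peak on chromosomes 1 to 19 was taken, 217130 of the 225769 peaks in the table, and the control value was subtracted from the MommeD43-GFP value at each. The cells were primary female NSCs grown from the cortices of E14.5 C57Bl/6 embryos, and CTCF was immunoprecipitated with 1 antibody and sequenced as 75-bp single-end reads. The control lines were Smchd1 GFP/GFP, in which SMCHD1 is fused to GFP, and the mutant lines were Smchd1 MommeD43-GFP/MommeD43-GFP, in which the same tagged allele also carries the MommeD43 missense change, remade with CRISPR. Both groups therefore share the GFP tag and differ by the point mutation and by whatever else separates the lines. Smchd1del/del lines, without the tag and made in culture from Smchd1 flox/flox cells with a Cre retrovirus and puromycin selection, give a value beside most named peaks and some other results. There were 3 control libraries, 3 MommeD43-GFP libraries, 2 Smchd1del/del libraries and 1 input library from a control line, for which the table holds no column.

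CTCF is a zinc finger protein that binds a defined DNA motif, halts cohesin and so anchors chromatin loops and domain borders. SMCHD1 is a non-canonical SMC protein with an ATPase domain and a hinge domain, which silences the inactive X chromosome, some imprinted genes and clustered autosomal genes such as the Hox genes and protocadherins. MommeD43 is a missense change, so the comparison asks how CTCF lies on chromatin when SMCHD1 is altered rather than deleted.

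Each value is the authors' mean over the libraries of a genotype of log2 reads per M of library, not divided by peak length. There is 1 value per genotype and no SD, so no difference below could be set against the spread between libraries and none carries a p-value. The lowest values decode into whole reads, which gave geometric mean library sizes of 41.7 M in control and 49.2 M in MommeD43-GFP and 30.3 and 35.2 reads per library at the median peak. The counting error of a value at the median was 0.15 and 0.14 on the log2 scale, and every SE given with a difference covers this counting only.

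The sequences below show CTCF core motif matches at some of the peaks named further on, most of which hold no such motif. The 12-base CTCF core motif was searched on both strands of GRCm38.p6 and lay in 3.83% of autosomal peaks and in 24.6% of the top 10% by level. Among the strongest peaks named further on, 4 hold a motif outside UTRs, shown in capitals with 24 bases on each side, read 5′ to 3′ on the strand of the motif. The first pair was higher and the second pair lower in MommeD43-GFP NSCs. They lie in an intron of Cdca7l (chr12:117820253-117820312, plus strand), an intron of AC151280.1 (chr17:68177999-68178058, plus strand), intergenic sequence near Gm11928 (chr4:32153521-32153580, plus strand) and an exonic peak of Itpr3 (chr17:27095266-27095325, minus strand).
Cdca7l: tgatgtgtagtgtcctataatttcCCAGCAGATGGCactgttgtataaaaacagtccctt
AC151280.1: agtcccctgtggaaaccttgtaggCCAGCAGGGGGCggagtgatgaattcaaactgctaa
Gm11928: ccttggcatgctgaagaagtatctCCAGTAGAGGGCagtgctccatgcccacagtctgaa
Itpr3: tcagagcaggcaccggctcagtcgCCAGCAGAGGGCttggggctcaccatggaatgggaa

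A further 4 sites come from weaker peaks with wider differences, in the same form. The intergenic peak on chromosome 3 (chr3:17613664-17613723, minus strand), the one near Gm47622 (chr10:53115217-53115276, plus strand) and the one over an exon of Muc19 (chr15:91927667-91927726, minus strand) were higher, and the Gm9509 promoter (chr15:37172350-37172409, plus strand) was lower.
Chromosome 3 peak: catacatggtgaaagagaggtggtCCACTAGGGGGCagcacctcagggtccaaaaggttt
Gm47622: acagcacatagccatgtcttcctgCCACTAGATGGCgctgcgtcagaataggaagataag
Muc19: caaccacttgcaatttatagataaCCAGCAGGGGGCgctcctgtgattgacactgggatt
Gm9509: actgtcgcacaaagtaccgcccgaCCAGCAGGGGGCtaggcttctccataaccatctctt

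Over the autosomes as a whole CTCF signal was close in the 2 genotypes. The median difference was 0.007, with quartiles at -0.23 and 0.26, and 85.7% of peaks lay within 1.5-fold of control. The SD over peaks was 0.43, against 0.217 from counting alone. At least 2-fold higher in MommeD43-GFP were 4474 peaks (2.06%) and at least 2-fold lower 1547 (0.712%). The higher peaks thus made up 74.3% of those apart, but this split moved with the scaling. It became 52.9% after quantile normalization of the 2 columns, 61.4% with the differences centred within bins of GC content and 42.5% once the trend of the difference with level was subtracted.

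The peaks that moved were small. Those at least 2-fold higher had a median length of 450 bp and a median of 8.43 reads per control library and 23.8 per MommeD43-GFP library, and 59.4% were under 500 bp long, against 26.8% of all autosomal peaks. Those at least 2-fold lower also had a median length of 450 bp, with 21.9 reads per control library and 11.1 per MommeD43-GFP library. The upper 108565 peaks, those whose mean level reached the median, held 265 that were higher (0.244%) and 52 that were lower (0.0479%). In the top 10% by level a single peak was 2-fold higher and a single one lower, while at 1.5-fold there were 77 above and 12 below control.

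**Figure D1:**
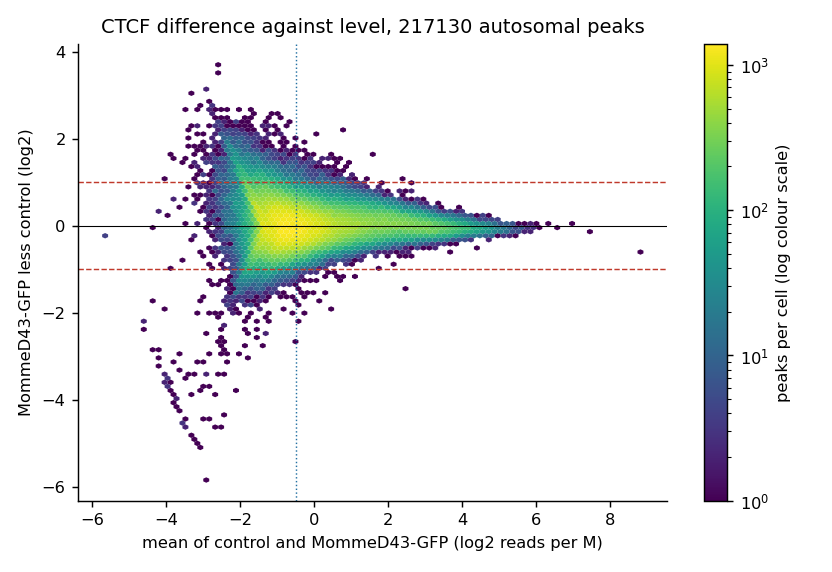
Each autosomal peak by its mean level in control and MommeD43-GFP (x axis, log2 reads per M) and its difference, MommeD43-GFP less control (y axis, log2). Colour counts peaks on a log scale, dashed lines mark 2-fold and the dotted line the median level of -0.49. The spread narrows as the level rises, and a band of peaks reaches down to -5.85 at the lower left.

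At 170 of the 4474 higher peaks the pooled control value can only arise if at least 1 control library had 0 reads. At 55 of the 1547 lower peaks the same holds for a MommeD43-GFP library. Gstcd, a gene for a glutathione S-transferase domain protein, shows what such a value can hold. Of its 3 peaks near 0 in control, the promoter peak at chr3:133005301-133005900 and the intron peak at chr3:133008601-133008900 each decode to 2 control libraries with 0 reads and 1 with 8. MommeD43-GFP had 28.6 and 19.7 reads per library there, and Smchd1del/del 24.8 and 11.6. At this locus the control libraries differ among themselves, and the pooled value does not show it.

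The genotypes lay further apart, in both directions, at short peaks than at long ones. Of 58233 peaks under 500 bp, 4.57% were at least 2-fold higher and 1.55% lower. The shares fell with each class, to 0.616% and 0.108% from 1000 up to 1500 bp, and from 3000 up to 5000 bp 1 peak of 10276 was higher and 0 lower. None of the 5170 peaks of at least 5 kb passed 2-fold. The SD over peaks narrowed over the same range from 0.53 to 0.13, and the part of it from counting from 0.29 to 0.052. Class medians stayed between -0.048 and 0.037. The longest class stood at -0.048, with 34.3% of its peaks above control. Both ends turned direction with the scaling: the shortest class became -0.015 after quantile normalization, and the longest 0.020 once centred within bins of GC content.

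The 5 longest peaks span whole gene neighbourhoods. The longest, 60300 bp over the Tnfrsf25 promoter (a death receptor gene, chr4:152115601-152175900), was at 7.01 in control, at 7.03 in MommeD43-GFP and at 6.88 in Smchd1del/del NSCs. The peak over the promoter of Nup188, a nuclear pore subunit, was at 5.36 in both control and MommeD43-GFP. At Mroh2a, at Myrf, the myelin regulatory factor, and at Rcc2, the differences were -0.12, -0.12 and -0.16. These 5 peaks hold 1707 to 7528 reads per control library, and the counting SE of their differences is 0.027 or less.

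**Figure D2:**
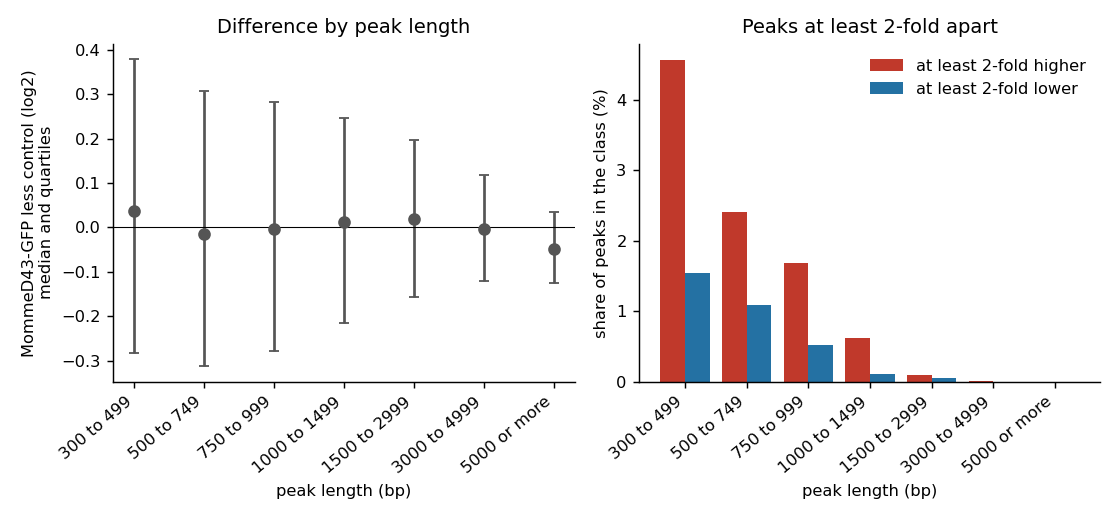
Left, the median (point) and quartiles (bars) of MommeD43-GFP less control (log2) in 7 classes of peak length. Right, the share of each class at least 2-fold higher (red) or lower (blue). Both shares fall with length, from 4.57% and 1.55% to 0.

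A rise at weak peaks appeared when peaks were ranked by a column that is itself part of the difference. In the lowest of 10 equal classes of the control level the median difference was 0.58 and 17.8% of peaks were at least 2-fold higher. From the fourth class on it was negative, with its lowest value, -0.099, in the sixth. By the mean of both columns the lowest class was at 0.30. The Smchd1del/del column is in neither side of the difference. Ranked by it, class medians lay between -0.017 and 0.048, and the lowest class was at 0.0038, with 6.54% of peaks higher and 3.23% lower. The widest of these medians, 0.048, was in the ninth class, where 57.4% of peaks were above control.

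The differences fell steadily with GC content. In the lowest of 10 GC classes, up to 43.1% GC, the median was 0.20, and it fell in every class to -0.12 in the highest, above 51.6% GC. At least 2-fold higher were 6.45% of peaks in the lowest class and 0.272% in the highest. The order held at every peak length. Under 500 bp the median went from 0.076 under 45% GC to -0.06 over 50%, and from 1500 up to 3000 bp it went from 0.21 to -0.11. In peaks of at least 5 kb it went from 0.11 over only 52 peaks, with 84.6% above control, to -0.080 over 3419, with 22.1% above control. Median signal in the lowest GC class was -0.72 in control, -0.59 in MommeD43-GFP and -0.56 in Smchd1del/del. In the highest class these were 0.24, 0.084 and 0.045, so Smchd1del/del stood on the same side of control as MommeD43-GFP in both. Both mutants are set against the same control values, so this is not a separate observation. The part of library GC composition in the order by GC content was not tested, since it needs single libraries.

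**Figure D3:**
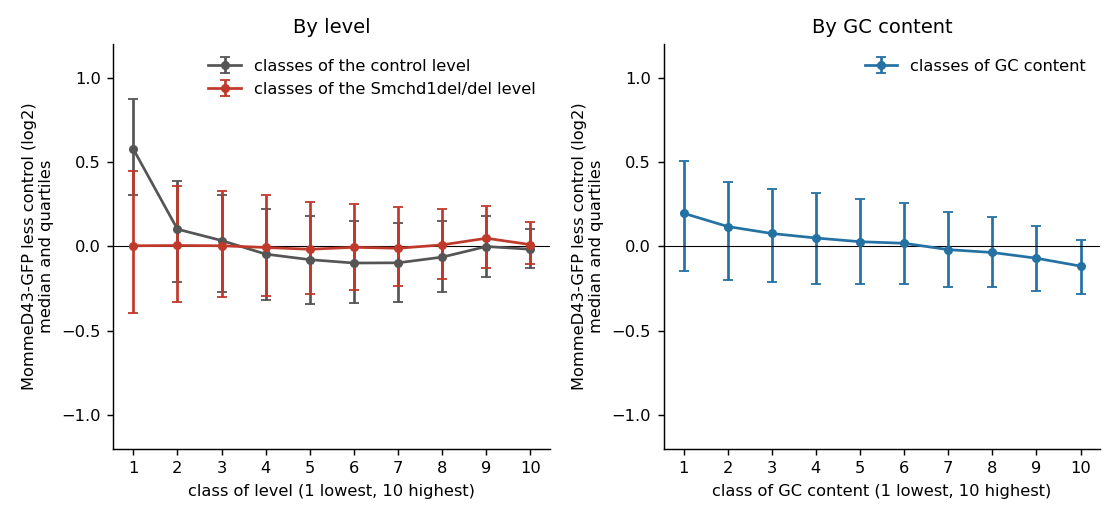
Median (points) and quartiles (bars) of MommeD43-GFP less control (log2) in 10 equal classes. On the left the classes are of the control level (grey) or of the Smchd1del/del level (red), and on the right of GC content. Ranked by control the lowest class stands at 0.58 and ranked by Smchd1del/del at 0.0038, while the GC medians fall from 0.20 to -0.12.

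Peaks with a CTCF core motif were shifted up where they were of middling strength. The 7913 peaks with 1 motif had a median of 0.055 (95% interval over peaks 0.049 to 0.060), with 1.71% at least 2-fold higher and 0.0885% lower. The 208806 peaks without one had a median of 0.0039, with 2.08% higher and 0.738% lower. The 411 peaks with more than 1 motif, which are strong, had a median of -0.035. Within the ninth class of the Smchd1del/del level, 1490 motif peaks had a median of 0.19 and 76.3% lay above control, against 0.039 and 56.0% for 20223 peaks without a motif. In the highest class the medians were 0.015 and 0.0092. Motif peaks had medians of 0.19, 0.22 and 0.20 in the sixth, seventh and eighth classes. In the fifth, with 100 motif peaks, the median was 0.0175 (-0.043 to 0.26). Median GC content in the ninth class was 44.8% for motif peaks and 48.0% for the others, and the part of GC in the shift was not tested. In the upper range of levels 45 of the 265 higher peaks held a motif and 2 of the 52 lower ones, beside 7.30% of all peaks there.

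By position on genes, promoters stood slightly below control and introns slightly above. The median was -0.036 over 28257 promoter peaks (within 1 kb of a transcription start), -0.015 over exons, 0.029 over introns and 0.016 over intergenic sequence. The 16019 peaks that lie on a start itself had a median of -0.056 and 39.8% above control. GC content moves with this order as well. Promoter peaks under 45% GC had a median of 0.17 and those over 50% a median of -0.10, and in intergenic sequence these were 0.17 and -0.091. With the differences centred within bins of GC content the promoter median was 0.0044 and the intron median 0.0019 (-0.0011 to 0.0053). At least 2-fold higher were 283 promoter peaks and 1880 of 77810 intron peaks (2.42%), beside 2.06% of all autosomal peaks. At least 2-fold lower were 126 (0.446%) and 521 (0.670%), beside 0.712%.

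Named peaks are those furthest from control within that upper range of levels, where 265 (0.244%) were higher and 52 (0.0479%) lower. They were chosen for their differences, which are given as a description. Smchd1del/del is set beside the same control value, so an unusually low or high control value puts both mutants on the same side of it. Of those higher, the first lay in an intron of Stard13 (chr5:151122451-151124100), at -0.25 in control, at 1.90 in MommeD43-GFP and at -0.24 in Smchd1del/del (4.46-fold over control, counting SE 0.15). Both mutants stood above control at Mllt3, which encodes AF9, a reader of acylated histones, with -0.98 in control, 1.14 in MommeD43-GFP and 1.52 in Smchd1del/del. An intron of Ext1, a heparan sulfate polymerase (chr15:53162101-53163150), was at -1.25, 0.63 and -0.38 in the same order.

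A second peak near Ext1 (chr15:53353501-53354550) was at -1.25 in control, at 0.39 in MommeD43-GFP and at 1.06 in Smchd1del/del. The intergenic motif peak of chromosome 3 (chr3:17613151-17614050) was at -1.26, 0.49 and 0.55, and that near Gm47622 (chr10:53114701-53115750) at -0.44, 1.22 and 1.81. At Muc19, a gel-forming mucin gene (chr15:91927201-91928250), the values were -0.99, 0.62 and 1.39. At these 4 peaks the value in Smchd1del/del cells lay above that in MommeD43-GFP. It lay below control at chr15:31826851-31828650, a peak 93213 bp from the nearest start, at 0.82 in control, at 2.42 in MommeD43-GFP and at 0.29 in Smchd1del/del. The 10 higher peaks had a median GC content of 41.7%.

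Chromosome 15 held 5 of the 10 named lower peaks of this range and 4 of the 10 named higher ones. Of all 52 lower peaks at this level 13 lay on chromosome 12 and 6 on chromosome 15, 36.5% together, against 10.6% of the 265 higher ones. Those 2 chromosomes hold 8.90% of all peaks at that level. The lowest, in an intron of Dab1, an adaptor of reelin signalling (chr4:104362651-104363850), was at 0.82 in control, at -1.79 in MommeD43-GFP and at 1.36 in Smchd1del/del. The promoters of Kank1, an adhesion adaptor, and Fam173b, a mitochondrial lysine methyltransferase, were at 0.66 and 0.80 in control and at -1.51 and -1.21 in MommeD43-GFP. Smchd1del/del cells had 0.73 and 0.70 there, close to control.

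Other promoters followed on chromosomes 12 and 15. At Asap2, an Arf GTPase-activating protein (chr12:20989501-20990550), the values were 0.44 in control, -1.42 in MommeD43-GFP and 1.66 in Smchd1del/del. At the non-coding Gm32618 (chr15:32778301-32779650) they were 0.98, -0.70 and 1.36, and at the motif-bearing Gm9509 promoter (chr15:37170901-37172850) the reads per library were 109, 35.5 and 114. An intron of Spag1, a dynein arm assembly factor (chr15:36223051-36223950), was at 0.42, -1.11 and 0.14. In each of these the MommeD43-GFP value stood below both other genotypes. The same was so at Mtus2, a microtubule-binding protein gene on chromosome 5, at 0.61, -1.01 and 0.97.

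In the top 10% by level differences were smaller. The only peak at least 2-fold higher lay over an exon of Snx31, a sorting nexin (chr15:36535951-36539100), at 1.92 in control, at 3.02 in MommeD43-GFP and at 2.42 in Smchd1del/del (difference 1.10, counting SE 0.08). A second peak in the same gene went the other way (chr15:36517201-36519000), at 2.55, 1.72 and 2.69. An intron of Trio, a guanine nucleotide exchange factor (chr15:27858001-27862350), was at 2.23, 3.06 and 1.98. These 3 lie on chromosome 15.

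Elsewhere among the strong peaks, an intron of Slc3a2, the heavy chain of the CD98 amino acid transporter (chr19:8717551-8720100), was at 2.05 in control, at 2.85 in MommeD43-GFP and at 2.87 in Smchd1del/del. The motif peaks of Cdca7l, a MYC interactor, and AC151280.1 were at 1.46 and 1.44 in control, 2.23 and 2.20 in MommeD43-GFP and 2.35 and 2.48 in Smchd1del/del. At Naip6, an inflammasome sensor (chr13:100282651-100286250), the reads per library were 118, 246 and 89.2. At the first 3 of these peaks both mutants stood above the control value that they share, and at Naip6 Smchd1del/del stood below control.

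The only strong peak at least 2-fold lower was the Gm45844 promoter (chr7:7277401-7278900), at 3.17 in control, at 1.71 in MommeD43-GFP and at 3.66 in Smchd1del/del (difference -1.46, counting SE 0.08). An exonic peak of Myo10, the filopodial myosin (chr15:25799101-25802850), was at 2.20, 1.27 and 2.17. The motif peak near Gm11928 (chr4:32151451-32155650) was at 2.79, 2.06 and 3.13 and that of Itpr3, an inositol trisphosphate receptor (chr17:27094801-27096900), at 2.13, 1.54 and 1.96. At Myo10 and Gm45844 the null thus stood near or above control while the point mutant was lower.

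**Figure D4:**
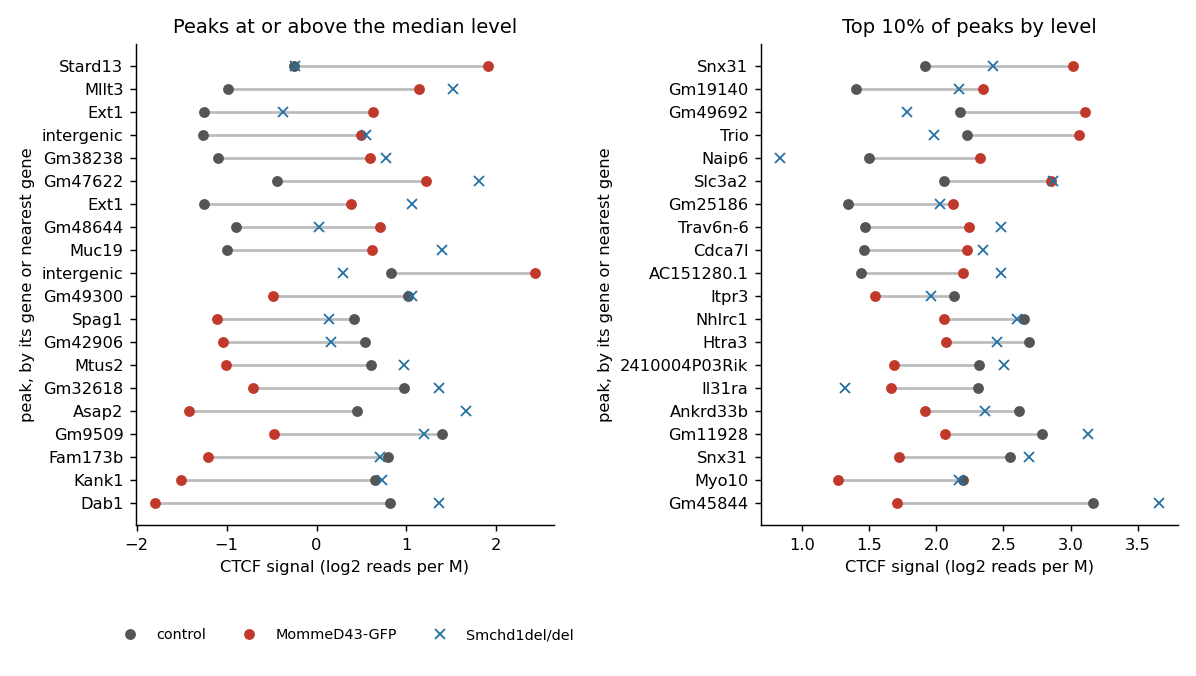
CTCF signal (x axis, log2 reads per M, 1 pooled value per genotype) at the 10 highest and 10 lowest differences in the upper range of levels (left) and in the top 10% by level (right). Grey is control, red MommeD43-GFP and blue crosses Smchd1del/del, and rows are ordered by the difference. On the left the differences run from 2.16 to -2.61 and on the right from 1.10 to -1.46.

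At promoters of protein-coding genes in the same range, 12 of 14534 peaks were at least 2-fold higher and 6 lower, shares of 0.0826% and 0.0413% beside 0.244% and 0.0479% for all peaks at that level. The highest was Arpc5, a subunit of the Arp2/3 complex (chr1:152767801-152769300), at -0.90 in control, at 0.70 in MommeD43-GFP and at 1.14 in Smchd1del/del. Pum2, an RNA-binding repressor of translation, was at -1.18, 0.23 and 0.94, and Ap2b1, a clathrin adaptor subunit, at -0.14, 1.13 and 1.33. Calu, a calcium-binding protein of the secretory pathway, and Aff4, the scaffold of the super elongation complex, differed by 1.27 and 1.24. The 10 higher promoters had a median GC content of 40.1%, and 5 of the 10 are named here. Beyond Kank1, Fam173b, Asap2 and Gm45844, the lowest were Clk1, a kinase of splicing factors (chr1:58423201-58424250), at 0.44, -0.66 and -0.17, and Olfr1339, at 0.33, -0.73 and -1.09.

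Along the chromosomes the median difference was flat and the lower peaks were not. Chromosome medians ran from -0.018 on chromosome 15 to 0.029 on chromosome 9. The share of peaks at least 2-fold lower was 0.334% to 0.973% on 17 chromosomes, and 1.75% on chromosome 12 and 1.48% on chromosome 15. Of 2383 windows of 1 Mb with at least 20 peaks, 1396 held no lower peak and 9 held at least 10% lower. The window at 18 to 19 Mb of chromosome 12 had 35.8% of 67 peaks lower and 7.46% higher, with a median of -0.53. The next one, at 19 to 20 Mb, had 30.6% lower and 9.68% higher. In Smchd1del/del cells 26.9% of the peaks of the first window were at least 2-fold above control and 8.96% below it, and in the second these shares were 11.3% and 17.7%.

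Other windows with many lower peaks were chromosome 7 at 7 to 8 Mb (19.2% of 26) and chromosome 15 at 33 to 34 Mb (17.8% of 45, median -0.33). Windows with many higher peaks were more spread over the genome. They were led by chromosome 3 at 81 to 82 Mb (18.9% of 37), chromosome 7 at 10 to 11 Mb (16.7% of 42) and chromosome 4 at 96 to 97 Mb (15.7% of 51). Neighbouring peaks were weakly related over all peaks, and peaks at least 2-fold apart were somewhat more frequent beside a peak apart in the same direction. Across 39605 pairs of neighbours less than 1 kb apart Pearson's r of the differences was 0.045, a value over pairs of peaks that share libraries. In the same pairs the second peak was at least 2-fold lower in 2.54% of 197 pairs with a lower first peak, and 2-fold higher in 4.02% of 696 with a higher first peak. For neighbours 20 to 100 kb apart these shares were 5.72% of 332 and 4.02% of 796, beside 0.712% and 2.06% of all peaks.

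Most of the strongest losses were in a pair of stretches. At least 4-fold lower were 96 peaks, of which 43 lay between 18 and 28 Mb of chromosome 12 and 25 between 31 and 50 Mb of chromosome 15. The remaining 28 came from 214888 peaks elsewhere, where 165 were at least 4-fold higher. The stretches, chosen after the values were seen, hold 895 and 1347 peaks. At 2-fold, 10.6% of the first and 5.42% of the second were lower and 3.58% and 3.71% higher, and their medians were -0.10 and -0.087.

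Many of these peaks had almost no reads at all in MommeD43-GFP. Under 3 reads per library (geometric mean, with 0 entered as 0.9) against at least 10 in control were 40 autosomal peaks, 17 in the chromosome 12 stretch, 13 in the chromosome 15 stretch, 4 on chromosome 4, 3 on chromosome 13, 2 on chromosome 7 and 1 on chromosome 19. In 14 of them all 3 MommeD43-GFP libraries had 0 reads. The reverse list, under 3 reads in control against at least 10 in MommeD43-GFP, had 36 peaks on 14 chromosomes with at most 5 on any of them. Repeats marked in the genome made up a median of 65.7% of the bases of the 40 peaks, against 8.17% in the reverse list and 15.9% over all autosomal peaks. This share differed between the stretches, at 21.3% for the 17 peaks of chromosome 12 and 79.3% for the 13 of chromosome 15. Smchd1del/del cells had reads at each of the 40, from 5.48 to 96.5 per library.

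The count was also made over peaks with at least 10 reads per Smchd1del/del library. Since the stretches were drawn from the same low MommeD43-GFP values, it describes them and does not stand apart from the count above. Under 3 reads in MommeD43-GFP were 38 of 870 peaks in the chromosome 12 stretch, 13 of 1332 in that of chromosome 15 and 18 of 212988 elsewhere. Under 3 in control were 2, 0 and 57. Whether the lines differ there in DNA sequence, copy number or CTCF binding was not tested. The only input is from a control line and has no column in the table, and there is none from a MommeD43-GFP line.

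The largest loss lay near Gm11905 on chromosome 4 (chr4:26555251-26556150), with 43.8 reads per control library, 0 in every MommeD43-GFP library and 47.7 per Smchd1del/del library. Set against a floor of 3 reads over the MommeD43-GFP libraries it was at least 51.8-fold lower. In the chromosome 15 stretch a peak near Tspyl5, a nucleosome assembly family gene (chr15:33704101-33704700), went from 21.9 to 0, at least 25.9-fold lower, with 34.3 in Smchd1del/del. An intronic peak of Cpq, a plasma carboxypeptidase (chr15:33221551-33221850), went from 19.4 to 0, at least 22.9-fold lower, with 10.2 in Smchd1del/del. Cpq as a whole, with 20 peaks, had the lowest median of 1510 protein-coding genes with at least 20 peaks, at -0.61, with a 95% interval over its peaks of -0.85 to 0.24.

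Not all of these peaks lie in repeats. An intronic peak of Sema5a, an axon guidance semaphorin, had 14.3 reads per control library, 0 in MommeD43-GFP (at least 16.9-fold lower) and 19.3 in Smchd1del/del, with a single repeat-marked base among 300. Its whole sequence is given, with nothing capitalised (chr15:32286601-32286900, GRCm38.p6, plus strand).
Sema5a peak: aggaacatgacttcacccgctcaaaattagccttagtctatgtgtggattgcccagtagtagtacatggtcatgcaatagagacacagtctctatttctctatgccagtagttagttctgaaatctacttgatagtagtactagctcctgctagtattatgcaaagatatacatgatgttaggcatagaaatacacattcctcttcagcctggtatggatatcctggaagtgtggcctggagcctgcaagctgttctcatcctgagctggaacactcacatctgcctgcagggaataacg

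On chromosome 12 the control itself was low beside Smchd1del/del. The 17 peaks of that stretch had medians of 13.2 reads per control library, 1.34 per MommeD43-GFP library and 38.9 per Smchd1del/del library, and 16 of them were above control in Smchd1del/del. All 17 were chosen for few reads in MommeD43-GFP, so they are in the merged list through a call in control or Smchd1del/del. High Smchd1del/del values at these weak control peaks can thus follow in part from how the list was made. At the promoter of the non-coding gene 5730507C01Rik (chr12:18513751-18515700) the reads were 32.3, 1.53 and 68.2, and at that of Gm48398 (chr12:18610501-18611400) 13.6, 0 and 68.9. On chromosome 15 the medians of the 13 peaks were 21.9, 0.932 and 18.7. Per M of library, Smchd1del/del less control had a median of -0.57 on the log2 scale over these 13 peaks, with 3 above control, and of 1.10 over the 17 peaks of chromosome 12.

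On chromosome 17, which also carries Smchd1, both tagged groups lacked reads at the same peaks. Introns of L3mbtl4, AC154721.1 and Birc6 (chr17:68748451-68748750, chr17:69919201-69919500 and chr17:74551951-74552250) each held a peak with 0 reads in all control and all MommeD43-GFP libraries. In Smchd1del/del these had 26.7, 21.2 and 20.8 reads per library. Peaks without reads in both tagged groups can be in the merged list only through a call in Smchd1del/del. The reads in Smchd1del/del there thus follow from how the list was made. They make up 3 of the 7 autosomal peaks under 3 reads in both groups, and no difference between the groups could be measured at them.

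**Figure D5:**
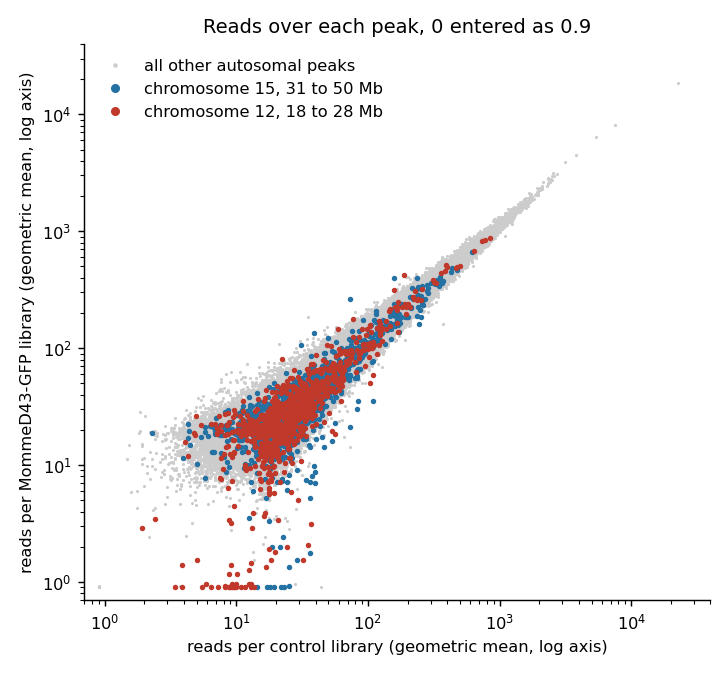
Reads over each autosomal peak per control library (x axis) and per MommeD43-GFP library (y axis), as geometric means on log axes with 0 entered as 0.9. Red marks chromosome 12 from 18 to 28 Mb, blue chromosome 15 from 31 to 50 Mb and grey all other peaks. The row of points at 0.9 on the y axis is made up mostly of peaks from the red and blue stretches.

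Peaks at genes of the neural lineage had medians near that of all autosomal peaks. The 172 peaks in and within 10 kb of 23 cortical stem cell regulators had a median of 0.010, with 1 at least 2-fold higher and 0 lower, beside 0.007, 2.06% and 0.712% over all autosomal peaks. The Notch pathway (126 peaks) stood at -0.021 and EGF and FGF response genes (583 peaks) at -0.020. Most peaks of the latter list come from 1 gene model, that of Fgfr2, an FGF receptor. Its annotated span (chr7:130162451-133123350) holds 460 peaks with a median of -0.03, so the list median mostly describes that stretch. Neuronal genes (425 peaks) stood at -0.042 and glial genes (111 peaks) at -0.060. At or above the median level, the widest difference in these lists was -2.61, at the Dab1 intron peak named above, in the neuronal list. The other peaks named here are each the highest or lowest of their list at that level. A peak marked as intronic within the long Fgfr2 span (chr7:131534101-131535150) was at -0.71 in control and 0.23 in MommeD43-GFP. Another in that span (chr7:130639651-130641300) went the other way, from 0.93 to 0.26. An intronic peak beside Nkx2-2, an oligodendrocyte regulator, was at 0.47 and 1.46. At the Sox2ot promoter, in the Sox2 locus, the values were 0.31 and -0.37. Smchd1del/del values were -0.58 and 0.51 at these Fgfr2 peaks, in that order, 1.79 at Nkx2-2 and -0.72 at Sox2ot.

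Chromatin regulators were likewise near the autosomal median. CTCF and cohesin genes (121 peaks) had a median of -0.041 and Polycomb genes (211 peaks) 0.036, and for the DNA methylation and H3K9 list (203 peaks) it was -0.0067. The peaks named next are each the highest or lowest of their list at or above the median level. At a promoter peak of Stag1, a cohesin subunit, with 2 core motifs, control was at 3.03, MommeD43-GFP at 2.47 and Smchd1del/del at 2.64. An intronic Stag1 peak (chr9:100616851-100618350) went the other way, at -0.015, 0.72 and 0.25. A peak over Setdb1, the H3K9 methyltransferase, was at 1.31, 2.12 and 1.98, and one near Cbx7, a Polycomb chromodomain protein, at 0.09, -0.96 and -0.60.

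Of the 20 gene lists, the interval of the median over peaks lay above 0 for 2 and below it for 4. Those above were ribosomal protein genes (245 peaks, median 0.046, 60.4% of peaks above control) and long neuronal genes (2516 peaks, median 0.045, 3.34% higher and 1.23% lower, beside 2.06% and 0.712% of all peaks). For the long neuronal genes the interval reached across 0 with GC centring (-0.0022 to 0.040) and with quantile normalization (-0.0051 to 0.043). Those below were vomeronasal receptors, at -0.085, keratins, at -0.095, imprinted genes, at -0.039, and olfactory receptors, at -0.021. The interval of the imprinted genes reached across 0 with GC centring (median -0.0022), with quantile normalization and with no flank, and that of the olfactory receptors with no flank. Under quantile normalization the intervals of the glial list (-0.11 to -0.0084) and of the CTCF and cohesin list also lay below 0, as did that of the glial list with no flank. Medians of the 1510 protein-coding genes with at least 20 peaks had a 5th percentile of -0.14 and a 95th of 0.18. The highest was Vav3, a guanine nucleotide exchange factor, with a median of 0.39 over 31 peaks (0.27 to 0.57), and then Nrp1, the semaphorin and VEGF coreceptor, with 0.38 over 21 peaks. Their medians in Smchd1del/del less control, which shares the control values, were 0.37 and 0.15.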

How the data were processed

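Chromatin from NSCs was immunoprecipitated with a CTCF antibody. The authors trimmed reads with Trim Galore 0.4.4 and cutadapt 2.9, checked them with FastQC 0.11.8, aligned them to GRCm38 with Bowtie2 2.3.4.1 and handled them with SAMtools 1.7. They extended reads by 180 bp, called peaks per genotype and merged overlapping peaks. Each deposited value is a log2 level, in reads per M of library over a merged peak, averaged by the authors over the libraries of a genotype and not divided by peak length. Duplicate removal is not given in the sources used here, and neither it nor the read extension could be varied here.

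Here the control value was subtracted from the MommeD43-GFP value at each autosomal peak with Python 3.11.15, numpy 2.4.6 and pandas 2.3.3 (figures: matplotlib 3.10.9), checked on simulated data. Because each genotype has 1 pooled value, no test was made. Reads were recovered from the lowest values, in which the product of the library counts is whole within 0.01 and 0 reads is entered as 0.9. Intervals of a median are 95% order-statistic intervals over peaks, which treat neighbouring peaks as independent and leave out the spread between libraries. SEs and floors on reads cover counting error only. GC content, repeats (lower-case bases), promoters (within 1 kb of a start) and motifs came from GRCm38.p6. Peaks were assigned to listed genes within 10 kb, and other peaks are named by the nearest gene within 50 kb.

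Named peaks are the 10 furthest above and below control, at least 100 kb apart, in the upper range of levels (mean of both columns no lower than its median), in the top 10% by level and at protein-coding promoters, plus the 5 longest. The peaks, stretches and sequences of the lists near 0 reads, and the sequences of weaker peaks, were added after their values were seen. The members and gene lists were chosen with earlier results of these data known. Alternatives covered scaling, GC content, level, length, threshold, pseudocount, promoter window, gene flank and window size.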

Additional observations from a re-analysis of the deposited data

Results flagged for a closer look

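X-chromosome peaks lie outside the autosomal comparison and were looked at separately. Of 8635 X-chromosome peaks, 233 (2.70%) stood 2-fold or more above control in MommeD43-GFP and 75 (0.869%) 2-fold or more below it, with a median difference of 0.0031. On the autosomes these shares were 2.06% and 0.712%. With 1 pooled value per genotype the difference from the autosomes was not tested.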

How the results depend on the processing

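No paired analysis was possible because each genotype has 1 pooled value, and for the same reason no library could be left out. Peaks at least 2-fold higher and lower numbered 4474 and 1547. These counts became 2347 and 3179 with the level trend subtracted, 265 and 52 at or above the median level, 1581 and 959 with at least 10 reads per library, 1815 and 645 from 500 bp, 1593 and 412 with a pseudocount of 0.1 and 3 and 4 with a pseudocount of 1. Lower peaks numbered 2656 after quantile normalization. At 1.5-fold there were 18536 and 12493, at 4-fold 168 and 96, and at 4-fold without the stretches of chromosomes 12 and 15 (an alternative added after seeing the data) 165 and 28.

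For peaks under 500 bp the median of 0.037 became -0.015 (quantile), -0.035 (trend), 0.020 (GC centred), -0.16 (at or above the median level) and 0.24 (motif peaks, added after seeing the data). From 5 kb, -0.048 became -0.0083, -0.0054 and 0.020 under the first 3. The class from 1500 bp became -0.014 (quantile) and -0.0038 (trend), that from 500 bp 0.0036 (trend) and 0.10 (motif peaks), and that from 1000 bp -0.0093 (GC centred).

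In the lowest level class 0.58 became 0.30 by the mean level, 0.0038 by the Smchd1del/del level and 0.66 per length. In the highest, -0.017 became -0.0026, 0.011 and -0.053. The eighth class was 0.0089 by the Smchd1del/del level and the fourth 0.010 per length. The GC extremes became 0.16 and -0.11 with the trend subtracted and 0.23 and -0.11 from 1500 bp, a length limit added after seeing the data.

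The promoter median of -0.036 became 0.0044 (GC centred), -0.047 (500 bp), -0.024 (2 kb) and -0.044 (at or above the median level, added after seeing the data). The intergenic one of 0.016 became 0.0063 (trend), 0.0031 (GC centred) and 0.012 (at that level, likewise added). On chromosome 12 from 18 Mb, -0.53 became -0.080 in a 5 Mb window. Lists with an interval above 0 fell from 2 to 1, losing the long neuronal genes, with GC centring and with quantile normalization. The cause of each change was not tested. Counting limits weak peaks, and the spread between libraries could not be measured.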
